A study of Mus musculus with 2 samples.

Results

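Mature dendritic cells (DC) of the mouse lung that carried Ccr7 and Fscn1, 240 of 10088 cells that passed quality filters, were described in 3 treatment pools. DC take up antigen in the lung, and on maturation they stop taking it up, display it with costimulatory molecules and move along a gradient of Ccr7 ligands through the lymph to the draining node, where they meet naive T cells. Fscn1 encodes the actin-bundling protein fascin, which mature DC use to form their long dendrites, and Cacnb3 encodes a calcium channel subunit. Mature DC can prime T cells or restrain them, and the same cells carry both activating and inhibitory surface ligands.

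The cells came from single-cell RNA sequencing (10x 3' chemistry) of DC and macrophages sorted from the lungs of female C57BL/6J mice (DC as MHC-II high and CD11c high), with several mice pooled per treatment. The asthma pool (labelled OVA) was sensitised with ovalbumin (OVA) in Alum by intraperitoneal injection and challenged intranasally with OVA. The tolerance pool (Tolerization protocol) inhaled OVA before the same asthma protocol. The control pool (Alum) received Alum without OVA by injection and saline in the nose, so all 3 pools had Alum. Equal numbers of cells from each pool, marked by hashtag antibodies, were mixed and run on 2 lanes. Each treatment is 1 pool of mice and the lanes are technical repeats of it, so differences between pools carry no p-value, and treatment cannot be told apart from the mice of its pool.

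A cell was a member when it had at most 20% mitochondrial UMIs (unique molecular identifiers, each counting 1 RNA molecule), at most 20000 UMIs, at least 500 genes, at least 3 UMIs of Fscn1, Ccr7 and Cacnb3 together with at least 1 of Fscn1, no UMI of Cd79a, Cd3g or C1qa, and fewer than 10 UMIs of Chil3, Ear1 and Krt79 per 10000. There were 86 and 69 in the asthma pool, 28 and 28 in the tolerance pool and 15 and 14 in the control pool, on lanes 1 and 2 of each. The comparison class was the Cd209a cDC2, type 2 conventional DC, defined by at least 2 UMIs of Cd209a, at most 1 UMI of the 3 rule genes and none of Xcr1 or Clec9a, with 674 cells. Their numbers were 183 and 182 in the asthma pool, 90 and 99 in the tolerance pool and 61 and 59 in the control pool. Levels are UMIs of a class in 1 lane of 1 pool, scaled to a class total of 1000000 (CPM). They compare a gene between samples, not 1 gene with another.

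The library totals over all 10901 deposited barcodes lay between 7897139 and 11459855 UMIs per lane and pool. The members held 492419 and 402778 UMIs in asthma, 173798 and 186307 in tolerance and 55227 and 70116 in control, so the control values are the least precise. The median member had 5513 UMIs in asthma, 6280 in tolerance and 4224 in control, against 7067, 8019 and 5590 in cDC2, and median mitochondrial shares of members were 3.08%, 3.20% and 3.19% by pool. No barcode was shared between libraries, every member had at least 90% of its hashtag UMIs from its own tag, and 1 member lay in the top 2% of doublet scores. Summed over all members, the markers of B cells lay between 18.1 and 64.4 CPM by lane and pool, of T cells between 0 and 59.0, of NK cells between 0 and 8.12, of alveolar macrophages between 59.0 and 115, of interstitial macrophages between 11.5 and 42.8, of monocytes between 521 and 1141, of neutrophils between 0 and 16.2, of endothelial cells between 0 and 50.8, of epithelial cells between 0 and 28.8, of plasmacytoid DC between 46.0 and 127 and of mast cells and basophils between 0 and 5.75. Marco, Cbr2, S100a9, Retnlg, Siglech, Klk1 and Sftpb, defining markers of such types, had no UMI in any member. Of the monocyte sum, Eno3, an enolase of muscle, gave 391 UMIs, Plac8 283 and Nr4a1 202, and the other list genes 12 or fewer each.

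The members matched their name on markers outside the rule. Ccl22 ranged over 1916 to 3773 CPM and Socs2 over 428 to 757 CPM in the 6 lane and pool values, and the general DC genes Zbtb46, Flt3, H2-Ab1 and Itgax were found in each. The rule genes are given as a description only. Fscn1 had 1742 and 2232 CPM in asthma, 2307 and 1712 in tolerance and 3495 and 3394 in control. Ccr7 had 2719 and 3066 CPM in asthma, 2842 and 3457 in tolerance and 4581 and 4621 in control. Cacnb3 had 498 and 601 CPM in asthma, 569.6 and 456 in tolerance and 779 and 599 in control. Fscn1 and Ccr7 were highest in both control lanes, while Cacnb3 overlapped between pools. The 2 members with exactly 3 rule UMIs had no Ccl22 or Socs2, 250.3 CPM of Relb and 417 CPM of Cd209a, and the 7 cells just outside with 2 rule UMIs had 1308, 429, 347 and 102 CPM of these genes. Over all members the same genes stood at 3065, 642, 732 and 21.0 CPM.

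Mature DC were a larger share of the cells in the asthma pool than in the tolerance pool, and larger there than in the control pool, on both lanes. Of the cells that passed the filters they made up 4.17% and 3.52% in asthma, 2.05% and 2.10% in tolerance and 0.884% and 0.840% in control. With the lanes added, the shares were 3.85% (exact 95% interval 3.28% to 4.49%) in asthma, 2.07% (1.57% to 2.68%) in tolerance and 0.863% (0.578% to 1.24%) in control, and these intervals, which cover counting error only, did not overlap. The sort took macrophages and DC together, so the mixture of the 2 sets part of each share. Set beside Cd209a cDC2 alone, with the other DC left out, the order was the same and the gaps smaller. Of mature DC and cDC2 together, mature DC were 32.0% and 27.5% in asthma, 23.7% and 22.0% in tolerance and 19.7% and 19.2% in control. Added, these were 29.8% (25.9% to 33.9%), 22.9% (17.8% to 28.6%) and 19.5% (13.4% to 26.7%), and the intervals of all 3 pools overlapped, those of asthma and control included. Members differ in depth between pools. With every cell thinned to 2000 UMIs before the rule was applied, the shares of passing cells were 3.50%, 1.79% and 0.660%.

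**Figure D1:**
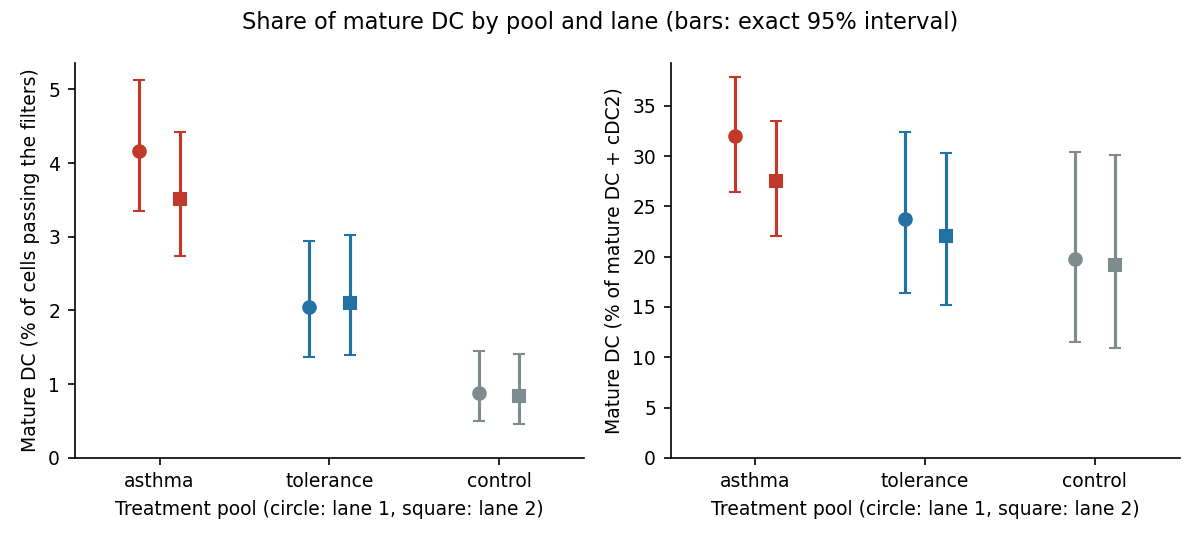
Share of mature DC among the cells that passed the filters (left, %) and among mature DC plus Cd209a cDC2 (right, %), for each treatment pool on lane 1 (circle) and lane 2 (square), with exact 95% intervals of counting error as bars. On the left the asthma lanes (4.17% and 3.52%) lie above the tolerance lanes (2.05% and 2.10%) and the control lanes (0.884% and 0.840%), and on the right the bars overlap.

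Against Cd209a cDC2, mature DC had a different set of chemokines, cytokines and T cell ligands, more of the NF-kB and MHC class I genes, and less of the antigen uptake, MHC class II and cell division genes. The UMIs of each class were summed per pool and the 6 sums compared by the edgeR quasi-likelihood test with pool as a block and Benjamini-Hochberg adjustment. Each pool is a different treatment, so the p-values do not measure spread between mice. Of 7510 genes tested, 1683 were higher in mature DC (22.4%) and 1764 lower (23.5%), with a median log2 difference of -0.05 over all of them. The 12 genes that chose the cells were not tested. Without the asthma pool, which holds most members, 813 genes were higher and 843 lower, and with lane 2 left out 1101 and 1046. With only total UMIs as the scale, 1309 were higher and 2461 lower and the median was -0.29, so that 34.7% rather than 48.8% of the calls were higher.

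Of the chemokines, 6 of 14 tested genes were higher and 4 lower (median log2 difference 0.56). Ccl22 (chromosome 8, 94745590 to 94751699 on GRCm38), a ligand of Ccr4, had 3773 and 2833 CPM in asthma, 1916 and 2743 in tolerance and 2662 and 3451 in control. In cDC2 the same 6 values were 34.0, 21.6, 48.6, 29.2, 75.8 and 49.1 CPM, so the classes lay far apart in every pool (log2 difference 6.46 ± 0.27 (SE), adjusted p = 9.51e-17). Its neighbour Ccl17, the other Ccr4 ligand, had 5195 and 2899.9 CPM in asthma, 3015 and 3494 in tolerance and 1992 and 2738 in control, against 2085, 1667, 1433, 1744, 1339 and 1260.4 CPM in cDC2. The summed level was higher in mature DC in every pair, by less than for Ccl22 (log2 difference 1.25 ± 0.19 (SE), adjusted p = 5.69e-06). In control, however, 1 cell gave 44.7% of the Ccl17 UMIs of members. The median control cell had 2.36 Ccl17 UMIs per 10000 in mature DC and 3.56 in cDC2, and 58.6% and 64.2% of the cells had a UMI (38.5% and 49.1% in thinned cells). Ccl5, which attracts T cells, averaged 4539 ± 4207 CPM in mature DC and 3.51 ± 1.40 CPM in cDC2 (SD, n = 3 pools each; log2 difference 9.92 ± 0.34 (SE), adjusted p = 2.56e-18). Cxcl16, the Cxcr6 ligand, averaged 869.5 ± 136 CPM in mature DC and 149.8 ± 52.0 CPM in cDC2 (SD, n = 3 each; log2 difference 2.83), and Cxcl9, a Cxcr3 ligand, was higher by 1.80 on the log2 scale. The inflammatory chemokines Ccl4 (-2.47), Ccl3 (-1.61), Ccl6 (-1.23) and Ccl2 (-2.99, with 3 UMIs in all members) were lower. Ccl3 depended on the asthma pool, without which its log2 difference was 0.16, and on lane 2, without which it was -0.27 and did not pass. Ccl24 was higher by 0.68 with both lanes, but stood at -0.22 without lane 1.

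The chemoattractant receptors split evenly, as 5 of 10 tested genes were higher and 5 lower (median log2 difference -1.05). Ccr2, which draws monocytes and their kin into inflamed tissue, had 2.03 and 9.93 CPM in asthma, 0 and 21.5 in tolerance and 0 and 0 in control, against a mean of 436 ± 58.5 CPM in cDC2 (SD, n = 3 pools). It was all but missing from mature DC in each pool (log2 difference -5.70 ± 0.33 (SE), adjusted p = 4.12e-14). Ccr1 (-4.27), Cx3cr1 (-4.17, 1 UMI in members) and S1pr4 (-4.04, 1 UMI) were also lower on the log2 scale. The receptors that rose were Adora2a for adenosine (4.59), Ptger4 for prostaglandin E2 (1.61), Cxcr4 (1.24) and Gpr183 for oxysterols (1.07). In the list of cytoskeleton and migration genes, 19 of 25 tested genes were higher and 2 lower (median log2 difference 1.76). Cd63, a tetraspanin of late endosomes, averaged 916 ± 73.4 CPM in mature DC and 7.16 ± 1.01 CPM in cDC2 (SD, n = 3 pools each; log2 difference 7.25 ± 0.26 (SE), adjusted p = 2.56e-18). Swap70, which acts on Rac and actin at the membrane, had 518 and 586 CPM in asthma, 455 and 478 in tolerance and 670.0 and 528 in control, against 51.0, 59.1, 44.0, 40.0, 97.9 and 72.3 CPM in cDC2, and all 6 pairs were higher in mature DC (log2 difference 3.45 ± 0.20 (SE), adjusted p = 5.90e-14). Anxa3 (5.93), Lad1 (7.44), Marcksl1 (2.78) and Marcks (2.55) rose too, while Coro1a (-1.02) and Tmsb10 (-0.91) fell. Eno2 had 33 UMIs in members and none in cDC2, which makes it at least 40.1-fold higher when 3 counts over the whole class are taken as the limit.

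**Figure D2:**
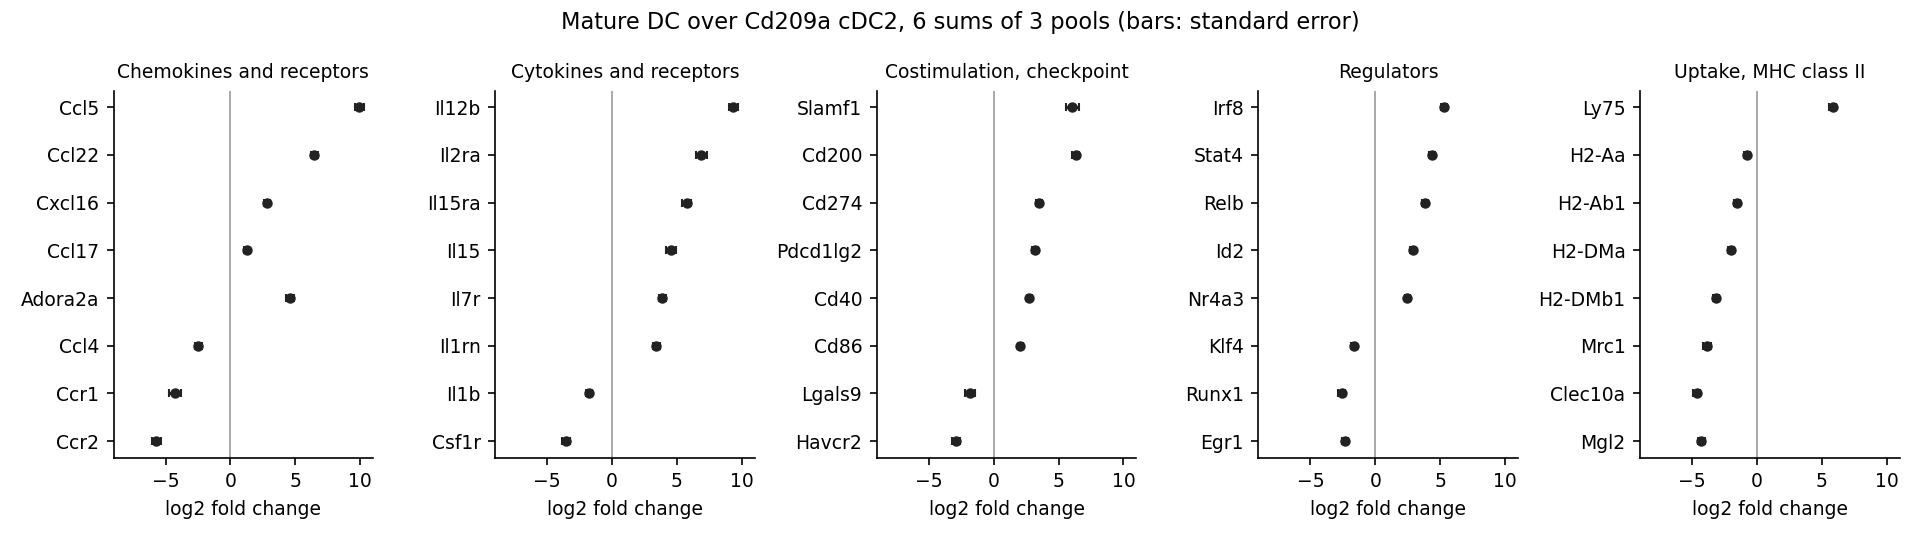
Log2 difference of mature DC over Cd209a cDC2 from edgeR (points, with the standard error as bars) for 8 genes in each of 5 groups, from 6 sums of 3 pools. Ccl5 (9.92), Il12b (9.35) and Ccl22 (6.46) lie far to the right of the line at 0, and Ccr2 (-5.70) and Clec10a (-4.65) far to the left.

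Of the cytokines, 5 of 12 tested genes were higher and 3 lower (median log2 difference 0.18). Il12b, the p40 subunit shared by IL-12 and IL-23, had 286 and 385 CPM in asthma, 247 and 338 in tolerance and 1666 and 2011 in control. Only 4 UMIs of it were found in all cDC2, and the groups did not overlap (log2 difference 9.35 ± 0.36 (SE), adjusted p = 1.05e-17). It had a UMI in 28.3% of members (median depth 5517), against 0.593% of cDC2 (6979), 0.372% of B cells (2027) and 0 of 129 T cells (2727). Il15 (4.53) and its presenting receptor Il15ra (5.76) rose together on the log2 scale, as did Il1rn, the IL-1 receptor antagonist (3.41), and Il6 (1.88). Il1b had 296 and 529 CPM in asthma, 236 and 123 in tolerance and 561 and 599 in control, against 1468, 1214, 1419, 1135, 1774 and 1643 CPM in cDC2, and was lower in every pair (log2 difference -1.78 ± 0.21 (SE), adjusted p = 8.53e-08). Tgfb1 was also lower (log2 difference -1.36). Il16 had no UMI in members and 92 in cDC2, and so was at least 8.40-fold lower.

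Among the cytokine receptors, 9 of 24 tested genes were higher and 6 lower (median log2 difference 0.43). The chains that rose were Il2ra (6.88), Il7r (3.88), Csf2rb2 (2.53) and Il21r (1.82), and those that fell included Csf1r (-3.54), Il1r2 (-3.51), Ifngr1 (-1.79) and Tgfbr2 (-1.44). Downstream of such receptors, 13 of 16 tested genes were higher and 1 lower (median log2 difference 0.94). Socs2 (chromosome 10, 95385362 to 95417180), an inhibitor of cytokine signalling, had 607 and 757 CPM in asthma, 616 and 601 in tolerance and 616 and 428 in control, against 31.5, 31.8, 30.4, 6.48, 12.6 and 2.58 CPM in cDC2. All 6 pairs were far apart (log2 difference 5.16 ± 0.24 (SE), adjusted p = 4.13e-16). Stat4, which carries the IL-12 signal, had 205 and 181 CPM in asthma, 207 and 295 in tolerance and 145 and 199.7 in control, against 15.3, 12.1, 15.2, 6.48, 6.31 and 12.9 CPM in cDC2 (log2 difference 4.39 ± 0.23 (SE), adjusted p = 8.88e-15). Stat5a (1.31) was higher as well, and Socs3 was the one member of the list that fell (log2 difference -1.05 ± 0.24 (SE), adjusted p = 0.000896).

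Of the costimulation and checkpoint ligands and their relatives, 18 of 22 tested genes were higher and 3 lower (median log2 difference 1.86). Cd40, through which T cells license DC, had 487 and 437 CPM in asthma, 368 and 456 in tolerance and 380.2 and 499 in control, against 111, 96.0, 88.0, 93.9, 25.3 and 31.0 CPM in cDC2 (log2 difference 2.75 ± 0.22 (SE), adjusted p = 3.50e-11). Cd86 averaged 351 ± 34.2 CPM in mature DC and 100.5 ± 2.15 CPM in cDC2 (SD, n = 3 pools each; log2 difference 2.05 ± 0.18 (SE), adjusted p = 3.13e-10). Cd80 (1.67) and Cd83 (1.55) rose by less. The genes furthest from cDC2 were receptors of the TNF family better known from T cells. Tnfrsf4 (OX40) had 323 and 382 CPM in asthma, 328 and 370.4 in tolerance and 380.2 and 128 in control, against 1 UMI in all cDC2, a ratio of the summed levels of 1711 (95% interval 306 to 67733). Tnfrsf9 (4-1BB) had 185 and 149 CPM in asthma, 201 and 242 in tolerance and 181 and 85.6 in control and no UMI in cDC2, at least 300.4-fold higher in members. Both were high in every lane of the members. Cd70, the ligand of Cd27, had 57 UMIs in members and 2 in cDC2, a ratio of 104 (95% interval 27.5 to 879). Of the inhibitory ligands, Cd200, Cd274 and Pdcd1lg2 rose. Cd200 had 337 and 308 CPM in asthma, 311 and 344 in tolerance and 235 and 85.6 in control, against 0 to 7.66 CPM in cDC2 (log2 difference 6.31 ± 0.28 (SE), adjusted p = 1.73e-16). Cd274 (PD-L1) averaged 271 ± 139.7 CPM in mature DC and 27.7 ± 20.6 CPM in cDC2 (log2 difference 3.51) and Pdcd1lg2 (PD-L2) 216 ± 153 CPM in mature DC and 27.7 ± 27.3 CPM in cDC2 (log2 difference 3.20). Slamf1 rose by 6.04, and Havcr2 (-2.90), Lgals9 (-1.83) and Vsir (-1.51) were lower on the log2 scale.

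Of the NF-kB and TNF response list, 21 of 26 tested genes were higher and 1 lower (median log2 difference 1.52). Relb, the NF-kB subunit of the noncanonical pathway, had 609 and 775 CPM in asthma, 765 and 735 in tolerance and 1249 and 841 in control, against 80.8, 77.6, 71.3, 71.3, 28.4 and 43.9 CPM in cDC2, with no overlap (log2 difference 3.83 ± 0.22 (SE), adjusted p = 7.21e-14). Its upstream kinase Map3k14 (NIK) rose by 2.13 and its partner Nfkb2 by 2.02 on the log2 scale. Birc2 (3.62), Cflar (2.47) and Traf1 (2.43), which hold back death signals from TNF receptors, were higher, and Tnfrsf1a was lower (-1.17). Nfkb1, with a log2 difference of 0.46, did not pass (adjusted p = 0.0630). Nfkbia, the inhibitor that NF-kB induces to shut itself off, had 1718 and 1765 CPM in asthma, 1577 and 1680.0 in tolerance and 3133 and 2909 in control, against 704, 596, 735, 804, 1373 and 1178 CPM in cDC2 (log2 difference 1.47 ± 0.19 (SE), adjusted p = 2.54e-07). The classical kB consensus was searched on both strands of the RefSeq promoter windows (GRCm38.p6, 250 bases before to 50 after the start). It was found in 9.55% of 27025 gene symbols with a window. For the NF-kB list 22 of 27 genes had a window, and since the list was chosen for this pathway no share over it is given. The stretches around the match in Nfkbia (chr12:55492649-55492694, minus strand) and in Tnfrsf9 (chr4:150927938-150927984, plus strand) are shown because both genes rose in mature DC, with the matched bases in capitals, which in Tnfrsf9 are 2 overlapping matches.
Nfkbia: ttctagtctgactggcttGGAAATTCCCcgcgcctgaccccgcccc
Tnfrsf9: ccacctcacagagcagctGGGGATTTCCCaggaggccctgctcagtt
A match is a description of the letters, and binding was not measured here.

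Antigen presentation genes moved apart by class. Of the MHC class II genes, 0 of 12 tested genes were higher and 10 lower (median log2 difference -0.94). H2-Ab1, the beta chain of I-A, had 4339.8 and 4658 CPM in asthma, 3418 and 5453 in tolerance and 3006 and 2011 in control, against 11635, 11222, 11820.2, 11684, 14749 and 14016 CPM in cDC2, lower in all 6 pairs (log2 difference -1.53 ± 0.25 (SE), adjusted p = 9.36e-06). H2-DMb1, a chain of the peptide exchanger H2-DM, had 173 and 107 CPM in asthma, 115 and 166 in tolerance and 36.2 and 28.5 in control, against 1202, 1248, 1302, 1281, 1054 and 1126 CPM in cDC2 (log2 difference -3.14 ± 0.24 (SE), adjusted p = 2.37e-11), and its partner H2-DMa fell too (adjusted p = 4.78e-07), with 57.0 to 440.1 CPM against 1074 to 1488 CPM in cDC2. Ciita, the master regulator of the class, was lower (log2 difference -1.13), and March1, a ubiquitin ligase that removes MHC class II from the surface, had 2 UMIs in members and 388 in cDC2, a ratio of 0.0188 (95% interval 0.00227 to 0.0684). Cd74, the invariant chain, was lower (log2 difference -0.67, adjusted p = 0.0240), a call that was lost without the asthma pool, without the tolerance pool and without lane 2. H2-DMb2 (-0.51, adjusted p = 0.105) and Ctss (0.01) did not pass. Of the MHC class I and peptide loading genes, 14 of 17 tested genes were higher and 2 lower (median log2 difference 1.25). B2m had 3672 and 3799 CPM in asthma, 4407 and 3473 in tolerance and 4491 and 4193 in control, against 1499, 1589, 1352, 1429.7, 1370.1 and 1291 CPM in cDC2, higher in every pair (log2 difference 1.70 ± 0.19 (SE), adjusted p = 3.61e-08). H2-K1 (1.79), the proteasome activator Psme2 (2.58), the peptide editor Tapbpl (3.09) and the class I regulator Nlrc5 (2.84) rose with it, while the chaperones Pdia3 (-1.61) and Calr (-1.01) fell.

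Antigen uptake and pattern recognition genes were lower as a group, with 15 of 20 tested genes lower and 2 higher (median log2 difference -2.16). The comparison class was chosen for the lectin gene Cd209a, so low values of cDC2 lectins in members can follow in part from that choice. Mgl2 (CD301b), a lectin of cDC2, had 119.8 and 99.3 CPM in asthma, 34.5 and 91.2 in tolerance and 36.2 and 0 in control, against 1564, 1527, 1419, 1892, 2352 and 2281 CPM in cDC2 (log2 difference -4.27 ± 0.29 (SE), adjusted p = 1.91e-12). The lectins Clec10a (-4.65), Clec4b1 (-4.00) and Mrc1 (-3.87) and the Fc receptors Fcgr2b (-3.69) and Fcgr1 (-2.72) were lower, and Clec4a2 had 2 UMIs in members. The exceptions were Ly75 (DEC-205), an endocytic receptor, with 284 and 271 CPM in asthma, 173 and 242 in tolerance and 199 and 214 in control against 5.10, 5.09, 1.52, 9.72, 0 and 2.58 CPM in cDC2 (log2 difference 5.85 ± 0.27 (SE), adjusted p = 4.13e-16), and Cd36 (3.01). Of the lysosome and cathepsin genes, 5 of 22 tested genes were higher and 7 lower (median log2 difference -0.26). Lamp1 (2.18), the protease Lgmn (2.10), the sterol carrier Npc2 (1.92) and Cst3 (1.36) rose, and Ctsa (-2.06), Cd68 (-2.01) and Psap (-1.14) fell. Rab7b, a Rab protein of late endosomes, had no UMI in any member and was not tested.

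**Figure D3:**
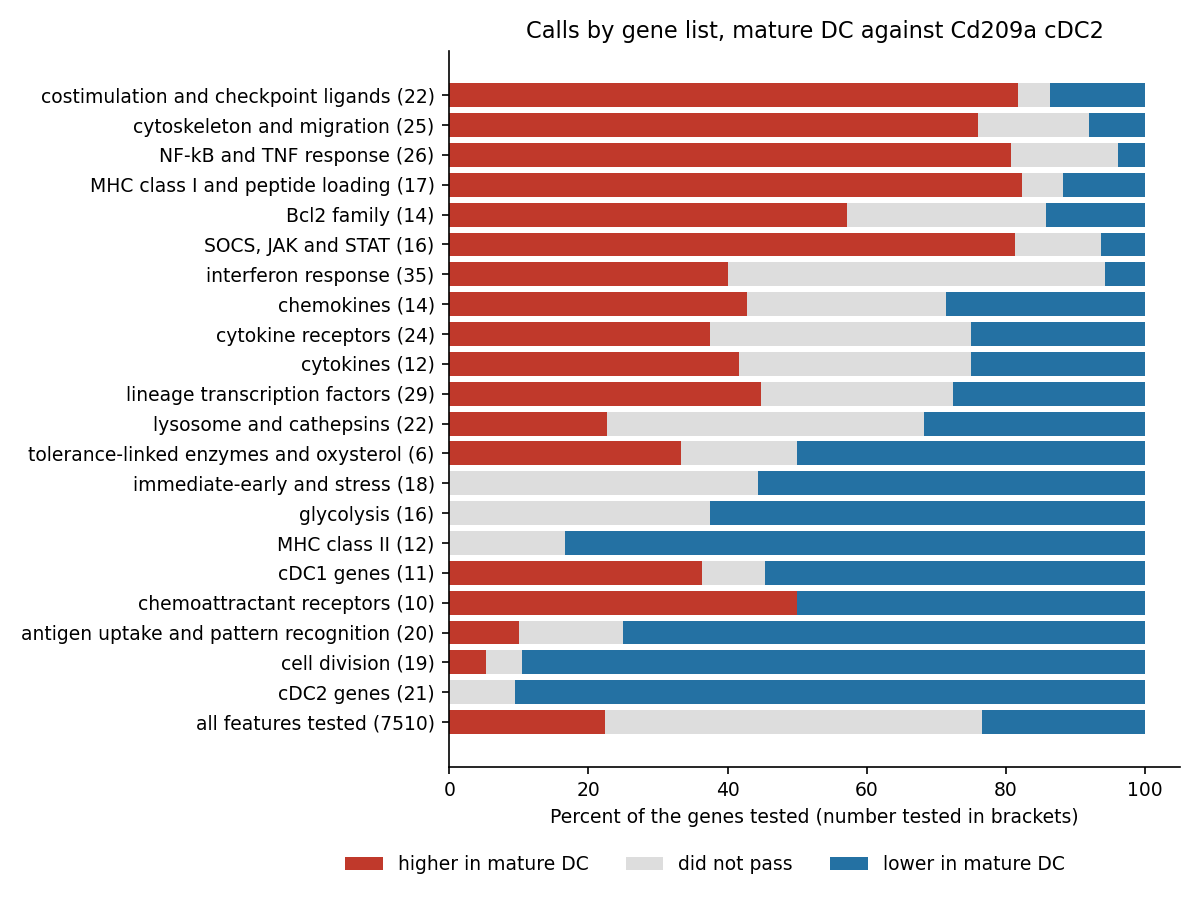
Percent of the tested genes of each list that were higher (red), did not pass (grey) or were lower (blue) in mature DC against Cd209a cDC2, with the number tested in brackets and all 7510 tested genes at the bottom. Costimulation, NF-kB, MHC class I and cytoskeleton lists are mostly red, and MHC class II, uptake, cell division and cDC2 lists mostly blue, against 22.4% higher and 23.5% lower over all genes.

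The regulators of DC lineage were mixed, as 13 of 29 tested genes were higher and 8 lower (median log2 difference 0.11). Irf8, on which type 1 conventional DC (cDC1) depend, had 571 and 469 CPM in asthma, 478 and 644 in tolerance and 652 and 442 in control, against 19.6, 21.6, 6.07, 14.0, 28.4 and 7.75 CPM in cDC2 (log2 difference 5.27 ± 0.23 (SE), adjusted p = 1.75e-16), with values close to each other in the 3 pools. Batf3, its partner in cDC1, had 345 and 402 CPM in asthma, 299 and 419 in tolerance and 163 and 214 in control, against 101 to 239 CPM in cDC2 (log2 difference 1.15 ± 0.18 (SE), adjusted p = 8.38e-06). Id2 (2.88), Nr4a3 (2.45) and Spib (2.29) rose, and Runx1 (-2.60), Klf4 (-1.67), Tcf4 (-1.38) and Zeb2 (-1.02) fell. Irf4, used by cDC2 and by migrating DC, had a log2 difference of -0.04 (adjusted p = 0.903). Of the cDC1 genes as a list, 4 of 11 tested genes were higher and 6 lower (median log2 difference -1.02), and Naaa (-3.67), Plet1 (-3.43), Wdfy4 (-2.20), Itgae (-2.10), Cd24a (-1.88) and Ppt1 (-1.02) were the lower ones, with Btla (1.12) among the higher ones beside Irf8 and Batf3. Cadm1 had 9 UMIs over all members and was not tested. Of the cDC2 genes, 0 of 21 tested genes were higher and 19 lower (median log2 difference -3.30), including Itgam (-4.91), Cd33 (-4.67, 2 UMIs in members) and Sirpa (-0.65). The comparison class was chosen for a cDC2 gene, Cd209a, so lower values of this list follow in part from that choice. Cells with Xcr1 or Clec9a were left out of the comparison class but not out of the members. Higher values of Irf8, Batf3 and other cDC1 genes in members can therefore follow in part from the choice as well. The general DC genes Zbtb46 (1.19) and Flt3 (1.07) were higher and Itgax (CD11c) was lower (-1.74).

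Enzymes linked to T cell restraint were split. Aldh1a2, which makes retinoic acid, had 571 and 290.5 CPM in asthma, 564 and 413 in tolerance and 54.3 and 143 in control, against 28.9, 15.9, 9.11, 10.8, 18.9 and 7.75 CPM in cDC2 (log2 difference 4.86 ± 0.28 (SE), adjusted p = 3.59e-14). Il4i1, a secreted amino acid oxidase, averaged 1622 ± 279 CPM in mature DC and 196 ± 159 CPM in cDC2 (SD, n = 3 each; log2 difference 3.56 ± 0.34 (SE), adjusted p = 1.08e-09). In that list of 6 tested genes, Alox5ap (-3.63), Entpd1 (-3.43, 3 UMIs in members) and Cyp7b1 (-1.30) were lower, and the median log2 difference was -0.44. Of the interferon response genes, 14 of 35 tested genes were higher and 2 lower (median log2 difference 0.57), led by Gbp4 (3.82), Gbp2 (3.78), Oasl1 (3.15) and Isg15 (2.45), with Ifit1 at 1.11, and Ifitm3 (-1.98) and Ly6a (-1.11) lower. Of the Bcl2 family, 8 of 14 tested genes were higher and 2 lower (median log2 difference 1.19). Bcl2l14 (5.66), Bcl2l1 (3.28), which encodes the survival protein Bcl-xL, Bcl2a1b (2.61) and Bbc3 (2.74), a promoter of cell death, were higher, and Bcl2 (-3.61) and Bid (-1.72) lower. Bcl2a1b has near-identical copies, among which reads may have been split.

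Cell division genes were low, since 1 of 19 tested genes were higher and 17 lower (median log2 difference -2.41), with Ube2c (-4.69), Ccnb2 (-3.44), Tk1 (-2.97), Cenpf (-2.80) and Top2a (-2.68) on the lower side and the histone gene H2afz (0.50) on the higher. Of the immediate-early and stress genes, 0 of 18 tested genes were higher and 10 lower (median log2 difference -0.73), with Egr1 (-2.32), Fos (-2.04), Ier3 (-1.93) and Egr2 (-1.27) lowest. Ifrd1, a transcriptional coregulator, was higher (0.90). Of the glycolysis genes, 0 of 16 tested genes were higher and 10 lower (median log2 difference -0.81), with the glucose transporters Slc2a3 (-4.02, 1 UMI in members) and Slc2a1 (-2.89) and the enzymes Hk2 (-2.53) and Eno1 (-1.92) furthest down. Genes of other cell types that passed were Eno3 (5.42), Cd8a (2.19), Cd79b (2.10) and Calcrl (1.99) on the higher side, and Epcam (-3.02), Ighm (-2.70), Ear2 (-2.46), Pecam1 (-1.82), Plac8 (-1.11) and Nr4a1 (-0.99) on the lower. Cd8a had 38 UMIs in members, against 1 each of Cd3d, Cd3e, Cd4 and Lck, and whether other cells contributed to these values was not tested.

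Outside the lists, the genes furthest above cDC2 included Apol7c, an apolipoprotein L gene, with 708 UMIs in members and 3 in cDC2 (ratio 861 (95% interval 293 to 4186)). Clu, encoding the chaperone clusterin, had a ratio of 701 (95% interval 124 to 27813) on 1 UMI in cDC2, Nudt17 of 479.8 (95% interval 132 to 3983) on 2, the adenylate cyclase Adcy6 of 372 (95% interval 102 to 3094) on 2 and Ankrd33b of 213 (95% interval 71.6 to 1042) on 3. Serpinb6b, an intracellular protease inhibitor, had 585 and 807 CPM in asthma, 731 and 1267 in tolerance and 1195 and 1069.7 in control, against 3.40, 3.81, 0, 4.32, 3.16 and 0 CPM in cDC2, and was high in every lane (log2 difference 8.37 ± 0.29 (SE), adjusted p = 2.56e-18). H2-M2, a nonclassical MHC class I gene (7.72), Tm4sf5 (7.31), Mreg (7.30) and Zmynd15 (6.87) followed on the log2 scale. On the lower side, the leukotriene B4 receptor Ltb4r1 had 3 UMIs in members and 540 in cDC2, a ratio of 0.0203 (95% interval 0.00417 to 0.0596). Tm6sf1 (-5.35), Qpct (-4.93), the adhesion gene Cdh1 (-4.81), the water channel Aqp3 (-4.62), Sla (-4.54), Ms4a6d (-4.50), Emb (-4.49), the transcription factor Mef2c (-4.35) and the leukotriene receptor Cysltr1 (-4.35) were the next lowest.

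Between treatments, mature DC of both OVA-exposed pools differed from those of the control pool in T cell ligands, chemokines and interferon response genes. They had less Il12b, Ccl5, Icam1 and Icosl, and more Ccl24, PD-L1, PD-L2, Aldh1a2 and H2-DMa RNA. Of the interferon response list, they had more Isg15, Ifitm3 and Ifi27l2a. A gene was counted as past the fold when the pools differed at least 2-fold (lanes added, 1 count added to each), averaged at least 100 CPM, and had both lanes of one pool above both lanes of the other. A call was lost where any of these no longer held, and such values are given below as log2 differences in thinned cells and with 1 lane left out. No test of treatment is possible with 1 pool each, and the counts below are descriptions. The floor is on the mean of the 2 pools, so a gene low in one pool entered only if it was high in the other. Counts over a list are therefore no test of that list. For asthma against control, 67 of 1354 genes were higher (4.95%) and 65 lower (4.8%), with a median log2 difference of 0.03. For tolerance against control, 70 of 1335 were higher (5.24%) and 81 lower (6.07%), with a median of 0.03. Both comparisons use the same control cells. For tolerance against asthma, 3 of 1349 genes were higher (0.222%) and 10 lower (0.741%), with a median of 0.01. When pools were scaled by TMM, 86 genes were higher and 46 lower for asthma (65.2% higher in place of 50.8%) and 89 higher and 72 lower for tolerance (55.3% in place of 46.4%), and the medians over all genes were then 0.14 and 0.12.

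Il12b was lower in both OVA-exposed pools. It had 286 and 385 CPM in asthma, 247 and 338 in tolerance and 1666 and 2011 in control, and both control lanes lay far above the other 4. The asthma level was 0.178-fold (95% interval 0.149 to 0.212) of control and the log2 difference of tolerance from control was -2.64, where intervals here and below are for counting error only. Thinned to 2000 UMIs, 19.5% of asthma, 14.5% of tolerance and 46.2% of control members had a UMI of it (unthinned 25.8%, 21.4% and 55.2%). A few cells weighed heavily, since the single cell with the most gave 40.6% of the tolerance UMIs and 32.2% of the control UMIs. Ccl5 (chromosome 11, 83525778 to 83530518) was likewise highest in control, with 1277 and 2676 CPM in asthma, 1703 and 2893 in tolerance and 8709.5 and 9926 in control. The control lanes did not overlap with the others, and the fold to control was 0.203-fold (95% interval 0.188 to 0.219) in asthma and 0.247-fold (95% interval 0.226 to 0.270) in tolerance. A single control cell gave 17.9% of the control Ccl5 UMIs. In thinned cells Ccl5 was found in 46.3% of asthma, 52.7% of tolerance and 84.6% of control members, and the unthinned shares were 54.2%, 60.7% and 86.2%. T cells, which make Ccl5 themselves, had it in 8.65% (thinned) and B cells in 0.365%. Il1b was lowest in tolerance, with 296 and 529 CPM in asthma, 236 and 123 in tolerance and 561 and 599 in control, and was past the fold there against control (-1.69 on the log2 scale). In thinned cells, values that moved over 1.5-fold were Il1b (-2.43) in tolerance over control.

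Ccl24 (eotaxin-2, a Ccr3 ligand that attracts eosinophils) had 2126 and 1249 CPM in asthma and 614 CPM over both lanes in tolerance, with lane 1 the higher in both pools. No control member or control cDC2 had a UMI of it, and 0 of 29 control members has an exact 95% interval that reaches 11.9%. Taking 3 counts in the pool as the limit, it was at least 72.3-fold higher in asthma and at least 25.6-fold higher in tolerance than in control. Tolerance stood at 0.354-fold (95% interval 0.306 to 0.408) of asthma, although 1 cell gave 47.1% of the tolerance UMIs. The cDC2 of the same pools had 1589, 2014, 298, 328, 0 and 0 CPM in the same order of lanes, so the order of the pools was the same in both classes. In thinned cells it was found in 28.2% of asthma and 25.5% of tolerance members, against 2.5% and 2.33% of the T cells of these pools (unthinned 38.1% and 37.5% of members). Ccl22, by contrast, had a log2 difference of 0.11 for asthma and -0.40 for tolerance over control, and 1 control cell gave 43.2% of its UMIs there. Cxcl10, a chemokine induced by interferon, was past the fold in tolerance over control (2.54) and Ccl9 was lower there (-1.18). The receptor Gpr183 was higher in both (2.09 and 2.19) and Ccrl2 lower in both (-1.99 and -1.29). In thinned cells, the call was lost for Ccl9 (-0.17) and Ccrl2 (-0.99) in tolerance over control. Gpr183 (1.26) in asthma over control, and Gpr183 (1.39) in tolerance over control moved over 1.5-fold in thinned cells. Without lane 1, the call was lost for Ccl9 (-0.88) in tolerance over control. Gpr183 (2.68) in asthma over control, and Ccrl2 (-1.99) and Gpr183 (2.84) in tolerance over control moved over 1.5-fold without lane 1. Without lane 2, the call was lost for Ccrl2 (-1.43) in asthma over control, and Ccrl2 (-0.20) and Cxcl10 (2.21) in tolerance over control. Gpr183 (1.58) in tolerance over control moved over 1.5-fold without lane 2.

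Of 13 costimulation and checkpoint genes, 3 were higher and 2 lower in asthma over control (median log2 difference 0.06), and 3 were higher and 3 lower in tolerance over control (0.26). Pdcd1lg2 met the floor through the OVA-exposed pools and Icosl through control, so these counts are no test of the list. The 3 higher genes were Cd274, Pdcd1lg2 and Cd200 in both cases, with both lanes counted. Cd274 (PD-L1) had 351 and 399.7 CPM in asthma, 247 and 403 in tolerance and 109 and 114 in control, and the control lanes were the lowest, at 3.34-fold (95% interval 1.96 to 6.18) for asthma over control and 2.93-fold (95% interval 1.68 to 5.53) for tolerance over control. Pdcd1lg2 (PD-L2) had 389.9 and 231 CPM in asthma, 247 and 327 in tolerance and 36.2 and 42.8 in control, which is 7.98-fold (95% interval 3.38 to 24.8) and 7.24-fold (95% interval 3.01 to 22.8). It rested on 5 control UMIs. Among thinned cells 51.7% of asthma, 41.8% of tolerance and 11.5% of control members had a Cd274 UMI, against 9.85% of B cells over all pools, close to the control members (unthinned 76.8%, 76.8% and 24.1% of members). Cd200 had 337 and 308 CPM in asthma, 311 and 344 in tolerance and 235 and 85.6 in control and was past the fold in both (log2 1.09 and 1.09). On the lower side, Icam1, an adhesion ligand for T cell integrins, had 335 and 362 CPM in asthma, 362 and 263 in tolerance and 851 and 899 in control, lower in asthma (-1.33) and tolerance (-1.48), and it was lower in cDC2 too. Icosl, the ligand of Icos, had 36.6 and 62.1 CPM in asthma, 51.8 and 26.8 in tolerance and 308 and 157 in control (log2 -2.17 and -2.40), and in cDC2 it was under the floor. Tnfsf9, the ligand of 4-1BB, was lower in tolerance than in control (-1.68) and in asthma (-1.03). Cd40, Cd80 and Cd86 lay within 2-fold in all 3 comparisons. Calls lost in thinned cells were those of Tnfsf9 (-0.54) in tolerance over asthma. A move of over 1.5-fold in thinned cells was found for Cd200 (1.89) and Pdcd1lg2 (2.03) in asthma over control, and Pdcd1lg2 (1.63) in tolerance over control. Calls lost without lane 1 were those of Tnfsf9 (-0.88) in tolerance over asthma, and Icosl (-2.25) in tolerance over control. A move of over 1.5-fold without lane 1 was found for Cd200 (1.80), Icosl (-1.28) and Pdcd1lg2 (2.32) in asthma over control, and Cd200 (1.91) in tolerance over control. Calls lost without lane 2 were those of Cd200 (0.51) in asthma over control, and Cd200 (0.39) in tolerance over control. A move of over 1.5-fold without lane 2 was found for Icosl (-2.95) in asthma over control.

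Of 39 listed interferon response genes, few reached the floor, and most of these were higher in each OVA-exposed pool. Past the fold were 4 of 7 in asthma over control (median log2 difference 1.15) and 5 of 8 in tolerance over control (1.57), and none of these was lower. The floor is on the mean of the 2 pools, so a gene low in control entered only if it was high in the OVA-exposed pool. The counts are therefore no test of the list. Irf1 and Nlrc5, counted on other lists, were lower in both, as given below. Isg15, a ubiquitin-like modifier, had 699 and 670.3 CPM in asthma, 932 and 1438 in tolerance and 163 and 57.0 in control, and the fold to control was 6.61-fold (95% interval 3.84 to 12.5) in asthma and 11.5-fold (95% interval 6.66 to 21.8) in tolerance. Its lanes did not overlap between pools. Ifitm3 had 400.1 and 429.5 CPM in asthma, 455 and 322 in tolerance and 36.2 and 57.0 in control and Ifi27l2a 611 and 494 CPM in asthma, 460.3 and 628 in tolerance and 54.3 and 99.8 in control, with the control lanes lowest in each. The log2 differences of Ifi27l2a were 2.78 for asthma and 2.72 for tolerance over control. With at least 2 rule UMIs per cell they were 1.92 and 1.81, a setting with 30 control members in place of 29. Bst2 (1.15 and 1.09) was past the fold in both comparisons and Slfn5 (2.05) in tolerance alone. Isg15 and Bst2 were past the fold in cDC2 as well, while Ifitm3 and Ifi27l2a in cDC2 lay within 2-fold. Rsad2 and Ifit1, which block viruses, had 85.3 and 79.4 CPM in asthma, 69.0 and 193 in tolerance and 36.2 and 0 in control, and 34.5 and 69.5 CPM in asthma, 46.0 and 161 in tolerance and 18.1 and 0 in control, under the floor of 100 CPM. Apol7c went the other way with 276 and 554 CPM in asthma, 322 and 515 in tolerance and 1956 and 1269 in control, lower in asthma at 0.255-fold (95% interval 0.214 to 0.305) and in tolerance at 0.269-fold (95% interval 0.216 to 0.334). The core of the interferon-stimulated response element (GAAA, any 2 bases, GAAA) was searched on both strands of the RefSeq windows and found in 3.99% of 27025 gene symbols with a window. For the interferon list 29 of 39 genes had a window, and since the other 10 had none no share over the list is given. The stretches with matches are shown for Isg15, for Ifit1 and Rsad2 of the same response, and for Apol7c, which was lower in the OVA-exposed pools, with the matched bases in capitals. They lie at chr4:156200857-156200914, minus strand, chr19:34640767-34640831, plus strand, chr12:26456545-26456590, minus strand, and chr15:77533337-77533388, minus strand, all before the start of the gene, and hold 3, 2, 1 and 2 matches that overlap in Isg15 and Apol7c.
Isg15: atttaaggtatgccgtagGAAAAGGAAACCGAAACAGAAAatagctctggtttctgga
Ifit1: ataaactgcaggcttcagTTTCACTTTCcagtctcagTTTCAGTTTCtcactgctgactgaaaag
Rsad2: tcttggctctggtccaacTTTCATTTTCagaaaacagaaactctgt
Apol7c: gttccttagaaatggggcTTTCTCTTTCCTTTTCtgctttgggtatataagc
As above, a match is a description of the letters. Lost in thinned cells was the call of Slfn5 (2.32) in tolerance over control. In thinned cells, values that moved over 1.5-fold were Isg15 (1.97) in asthma over control, and Ifi27l2a (2.13) and Isg15 (2.55) in tolerance over control. Lost without lane 1 was the call of Bst2 (0.98) in tolerance over control. Without lane 1, values that moved over 1.5-fold were Apol7c (-1.19) and Isg15 (3.46) in asthma over control, and Apol7c (-1.29) and Isg15 (4.48) in tolerance over control. Without lane 2, values that moved over 1.5-fold were Apol7c (-2.81), Ifi27l2a (3.41) and Isg15 (2.08) in asthma over control, and Apol7c (-2.57) and Isg15 (2.45) in tolerance over control.

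**Figure D4:**
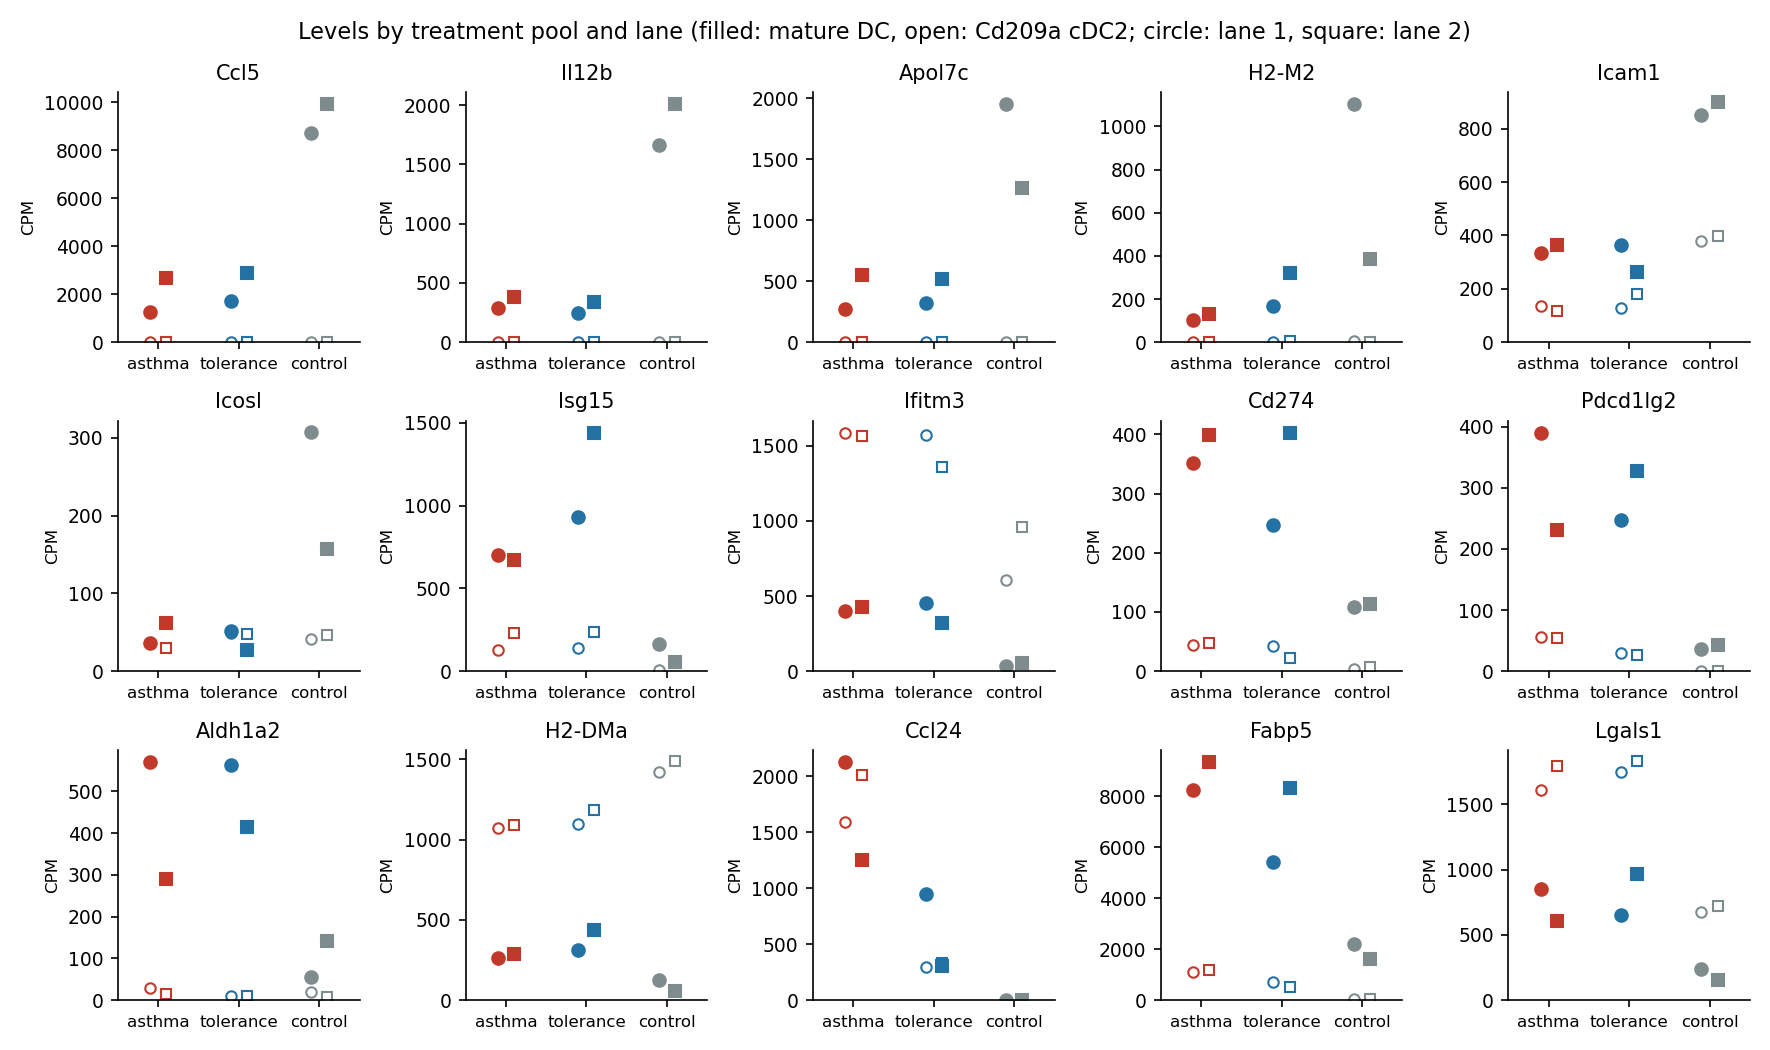
Levels (CPM) of 15 genes by treatment pool in mature DC (filled) and Cd209a cDC2 (open), on lane 1 (circle) and lane 2 (square). The control lanes of mature DC are highest for Ccl5, Il12b, Apol7c, H2-M2, Icam1 and Icosl and lowest for Isg15, Ifitm3, Cd274, Pdcd1lg2, Aldh1a2, H2-DMa, Ccl24, Fabp5 and Lgals1.

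Of 8 MHC class II genes, 2 were higher and none lower in each OVA-exposed pool (median log2 difference 0.50 for asthma and 0.56 for tolerance). Both genes were low in control and met the floor through the OVA-exposed pools, so these counts are no test of the list. H2-DMa had 262 and 286 CPM in asthma, 311 and 440.1 in tolerance and 127 and 57.0 in control and was 3.11-fold (95% interval 1.71 to 6.30) for asthma and 4.30-fold (95% interval 2.33 to 8.82) for tolerance over control. H2-DMb2 had 238 and 286 CPM in asthma, 265 and 338 in tolerance and 163 and 14.3 in control (log2 1.68 and 1.87), with 1 control lane far below the other. In cDC2 neither reached 2-fold. H2-Ab1 itself lay at 0.87 and 0.87. Among 16 MHC class I genes Nlrc5 was lower in both (-1.06 and -1.72) and no gene higher. Aldh1a2 had 571 and 290.5 CPM in asthma, 564 and 413 in tolerance and 54.3 and 143 in control, with all 4 OVA-exposed lanes above the control lanes, and was 4.29-fold (95% interval 2.48 to 8.12) for asthma and 4.69-fold (95% interval 2.67 to 8.98) for tolerance, while Il4i1 stayed within 2-fold (0.50 and 0.26). Ctsc, a lysosomal protease, was higher in both (1.62 and 1.56), as were the transcription factor Nfil3 (1.48 and 1.53) and the glycolytic enzyme Pfkp (1.32 and 1.28), and Irf1 was lower (-1.06 and -1.26). In thinned cells, the call was lost for Pfkp (0.65) in asthma over control, and Pfkp (0.33) in tolerance over control. Ctsc (2.33) and H2-DMa (3.37) in asthma over control, and H2-DMa (3.35) in tolerance over control moved over 1.5-fold in thinned cells. Without lane 1, the call was lost for Irf1 (-0.75), Nfil3 (0.77) and Nlrc5 (-0.38) in asthma over control, and Nfil3 (0.82) and Nlrc5 (-0.87) in tolerance over control. Aldh1a2 (1.005), H2-DMa (2.24) and H2-DMb2 (3.97) in asthma over control, and Aldh1a2 (1.49), H2-DMa (2.79) and H2-DMb2 (3.97) in tolerance over control moved over 1.5-fold without lane 1. Without lane 2, the call was lost for H2-DMb2 (0.53) in asthma over control, and H2-DMb2 (0.67) and Pfkp (0.91) in tolerance over control. Aldh1a2 (3.31), H2-DMa (1.03) and Nfil3 (3.15) in asthma over control, and Aldh1a2 (3.18), H2-DMa (1.24), Nfil3 (2.97) and Nlrc5 (-2.36) in tolerance over control moved over 1.5-fold without lane 2.

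Of the 8 SOCS, JAK and STAT genes, Socs3 had 156 and 129 CPM in asthma, 236 and 145 in tolerance and 90.5 and 42.8 in control and was past the fold in both (1.15 and 1.51), on 8 control UMIs in 4 cells of which 1 cell gave 62.5%, and Stat5a in asthma alone (1.30). Anxa3 was the one cytoskeleton gene past the fold, and it was lower in both (-1.18 and -1.14). Of the NF-kB genes, Nfkb1 was higher in asthma (1.06) and Nfkbiz lower in tolerance (-1.19), with list medians of -0.16 and -0.34. Among cytokine receptors Csf2rb2 was lower in asthma (-1.01) and Il2ra lower in tolerance (-1.06). Of the immediate-early and stress genes, Btg2 was lower in both (-1.52 and -1.22), Fosb in asthma (-1.05), and the heat shock genes Hspa1a (-2.91) and Hspa1b (-2.05) in tolerance. In tolerance Hmgb2 was lower (-1.10) and Tuba1b higher (1.02) among division genes, and Sirpa, a cDC2 gene, was higher in asthma (1.22). The monocyte marker Plac8 was higher in tolerance (4.85, or 1.30 in cells with at least 2 rule UMIs), and Eno3, of the same list, was lower in both (-1.81 and -1.80), and the whole monocyte list summed to 638 and 521 CPM in asthma, 875 and 558 in tolerance and 1141 and 913 in control. Calls lost in thinned cells were those of Csf2rb2 (-0.70), Fosb (-0.76), Sirpa (0.83) and Socs3 (1.18) in asthma over control, and Anxa3 (-0.68), Hmgb2 (-1.14), Hspa1b (-0.65), Il2ra (-0.31) and Nfkbiz (-1.51) in tolerance over control. Calls lost without lane 1 were those of Anxa3 (-0.82), Csf2rb2 (-0.90), Fosb (-0.98), Nfkb1 (0.92), Socs3 (1.504) and Stat5a (0.65) in asthma over control, and Anxa3 (-0.95), Socs3 (1.59) and Tuba1b (0.71) in tolerance over control. Control members then had no UMI of Plac8. Calls lost without lane 2 were those of Fosb (-0.92), Sirpa (0.75) and Socs3 (0.76) in asthma over control, and Btg2 (-0.80), Hmgb2 (-0.43), Il2ra (-0.82) and Nfkbiz (-0.38) in tolerance over control. A move of over 1.5-fold without lane 2 was found for Stat5a (2.31) in asthma over control, and Plac8 (4.05) in tolerance over control.

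Outside the lists, Fabp5, a fatty acid carrier, had 8239 and 9340.1 CPM in asthma, 5426 and 8304 in tolerance and 2191 and 1626 in control, higher than control by 4.66-fold (95% interval 4.09 to 5.33) in asthma and 3.69-fold (95% interval 3.23 to 4.23) in tolerance, with the control lanes well below the rest. It was also higher in the cDC2 of both pools. Further genes past the fold in both comparisons, with log2 values for asthma and for tolerance over control, were Ddt (2.58 and 2.59), Riok3 (2.36 and 2.38), Slc7a11 (1.95 and 1.63), which imports cystine, Lgals1 (1.95 and 2.07), encoding galectin-1, Mdh2 (1.86 and 1.99), Hfe (1.73 and 1.80), Nrp2 (1.96 and 1.60) and the cyclin Ccnd2 (1.58 and 1.81). Fabp4 (2.11 and 1.12) was among them too, but had no UMI in control lane 1. In asthma Gsto1 (2.11) and Wfdc17 (2.41) completed the 10 highest, and in tolerance Acadm (2.80), Jaml (2.44) and Plk2 (2.34). Lower in both were Fxyd2 (-3.10 and -3.14), Tnni2 (-2.73 and -3.45), H2-M2 (-2.59 and -1.49), Laptm4b (-2.27 and -2.54), Aif1 (-2.10 and -1.68), Mpeg1, encoding a pore-forming protein (77.2 and 39.7 CPM in asthma, 46.0 and 59.0 in tolerance and 181 and 299.5 in control), Dusp2 (-1.93 and -2.22), a phosphatase of kinase signalling, Zcchc7 (-1.90 and -1.67), Tmem19 (-1.58 and -1.95), Gusb (-1.33 and -1.95), Nfe2l2 (-1.36 and -1.84), Rrad (-1.93 and -1.19) and Zmynd15 (-1.30 and -1.20). Odc1 was lower in tolerance (-2.25). Dusp2 had 195 and 278 CPM in asthma, 184 and 193 in tolerance and 959.7 and 841 in control, against 171, 167, 187, 207, 208 and 261 CPM in cDC2, where the pools lay within 2-fold. Lost in thinned cells was the call of Gusb (-1.45), Nrp2 (0.77) and Wfdc17 (2.77) in asthma over control, and Acadm (1.63), Fabp4 (0.57), Gusb (-1.56), Jaml (2.32), Nrp2 (0.67), Plk2 (3.91) and Riok3 (2.32) in tolerance over control. In thinned cells, values that moved over 1.5-fold were Fabp4 (1.43), Gsto1 (1.15) and Riok3 (3.05) in asthma over control, and Fxyd2 (-2.38), Hfe (1.12) and Mpeg1 (-1.56) in tolerance over control. Lost without lane 1 was the call of Acadm (2.12), Fabp4 (0.30), H2-M2 (-0.25) and Plk2 in tolerance over control. Without lane 1, values that moved over 1.5-fold were H2-M2 (-1.52), Laptm4b (-1.66), Mpeg1 (-2.79), Nfe2l2 (-2.08) and Wfdc17 (1.62) in asthma over control, and Laptm4b (-1.94), Mdh2 (2.73) and Tnni2 (-2.73) in tolerance over control. Control members then had no UMI of Jaml and Plk2. Lost without lane 2 was the call of Gsto1 (3.00), Nfe2l2 (-0.44), Wfdc17 and Zcchc7 (-1.28) in asthma over control, and Fxyd2 (-2.87), Jaml (0.61), Odc1 (-0.73), Rrad (-0.63) and Zcchc7 (-1.10) in tolerance over control. Without lane 2, values that moved over 1.5-fold were Ddt (3.21), Fxyd2 (-2.20), H2-M2 (-3.40) and Mpeg1 (-1.19) in asthma over control, and Ddt (3.21), Gusb (-1.22), H2-M2 (-2.66), Lgals1 (1.45), Mdh2 (1.08), Nfe2l2 (-1.13), Plk2 (1.20) and Riok3 (1.70) in tolerance over control. Control members then had no UMI of Fabp4 and Wfdc17.

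Few genes were past the fold between tolerance and asthma, and 1 of them, Ccl24, is described above. Control members held 125343 UMIs, against 895197 in asthma and 360105 in tolerance members. The counts against control rest on fewer UMIs, so this smaller count does not show that tolerance and asthma were closer. Hspa1a had 282 and 437 CPM in asthma, 57.5 and 80.5 in tolerance and 561 and 542 in control, and tolerance was 0.197-fold (95% interval 0.126 to 0.297) of asthma with both lanes below the other 4. Lower in tolerance than in asthma on the log2 scale were also Hspa1b (-1.92), Hmgb2 (-1.34), Il1b (-1.17), Lad1 (-1.08), Tnfsf9 (-1.03), Fam46c (-1.14), Appl1 (-1.05) and Med13l (-1.21). The named genes higher in tolerance were Klrd1 (1.01) and H2-M2 (1.09). The interferon list had none of 12 genes past the fold (median log2 difference 0.31), and Isg15 stood at 0.80. The number of such genes moved with the setting. In thinned cells 17 were higher and 23 lower, and without lane 1 it was 19 and 15. In thinned cells, the call was lost for Appl1 (-0.77), H2-M2 (0.50), Hmgb2 (-1.47), Klrd1 (0.31), Lad1 (-0.88), Med13l (-0.35) and Tnfsf9 (-0.54) in tolerance over asthma. Hspa1b (-1.29) in tolerance over asthma moved over 1.5-fold in thinned cells. Without lane 1, the call was lost for Appl1 (-1.38), Lad1 (-0.995) and Tnfsf9 (-0.88) in tolerance over asthma. Hmgb2 (-1.99), Il1b (-2.07) and Klrd1 (1.84) in tolerance over asthma moved over 1.5-fold without lane 1. Without lane 2, the call was lost for Appl1 (-0.74), Fam46c (-0.94), H2-M2 (0.70), Hmgb2 (-0.73), Il1b (-0.33), Klrd1 (0.20) and Med13l (-1.26) in tolerance over asthma.

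The differences between pools were compared with those in Cd209a cDC2 for the list genes past the fold in mature DC. For asthma over control, 19 list genes were higher in mature DC, of which 4 were past the fold in cDC2 in the same direction, 8 lay within 2-fold there, 6 were under the floor and 1 went the other way. Of the 12 that were lower, 4 were so in cDC2 and 8 were under its floor. For tolerance over control, 6 of 20 higher genes and 5 of 18 lower genes were past the fold the same way in cDC2. Under its floor were 6 and 8, and none went the opposite way. Over all genes tested in cDC2, 64 of 1433 were higher and 42 lower for asthma over control. For tolerance over control, 41 of 1415 were higher and 38 lower. Ccl24, Isg15 and Bst2 were past the fold in both classes, whereas H2-DMa, Ifitm3 and Ctsc lay within 2-fold in cDC2. Whether the classes differed in their response was not tested.

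Mature DC varied among themselves in lineage genes. Cells were thinned to 2000 UMIs, which left 230 members, and sorted by whether they held a UMI of Irf8 and of Sirpa, a signal regulatory protein of cDC2. Irf8 without Sirpa was found in 87 cells (37.8%), Sirpa without Irf8 in 30 (13.0%), both in 14 (6.09%) and neither in 99 (43.0%). A UMI can be missed at this depth, so a cell without one may still express the gene. Irf8 was found in 43.9% of thinned members and 57.9% of unthinned ones, and Sirpa in 19.1% and 35.8%. In Cd209a cDC2, thinned alike, 2.11% had an Irf8 UMI, in T cells 8.65% and in B cells, which use Irf8, 35.0%. The cells with Irf8 alone had 865 CPM of Il12b, against 16.1 in those with Sirpa alone, 4330 against 1008 CPM of Ccl5 and 2338 against 6286 CPM of H2-Ab1. Il4i1 was at 1440 against 2537 CPM and Ccl17 at 3879 against 5191 CPM. These are sums of unthinned counts over cells of 3 pools in unequal numbers, and they are given with no test. Xcr1, absent from the rule, had 4.47 CPM in asthma, 22.2 in tolerance and 16.0 in control members.

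By pool, Irf8 without Sirpa made up 36.2% of asthma, 40.0% of tolerance and 42.3% of control members, and Sirpa without Irf8 16.1%, 9.09% and 3.85%. The last is 1 cell of 26. Within the cells that had Irf8 alone, Ccl5 stood at 2888 CPM in asthma, 2897 in tolerance and 15652 in control, and Il12b at 771, 659 and 1881 CPM. H2-Ab1 was at 2278, 3286 and 332 CPM and Isg15 at 576, 1976 and 92.2 CPM. The control values of this class are sums over 11 cells. In the cells with neither gene, Il12b stood at 139 CPM in asthma, 78.2 in tolerance and 2313 in control, the last on 12 cells. Of the members with an Irf8 UMI 36.6% had Il12b, against 9.30% of those without. Ccl22 was found in 89.6% of the cells with Ccl17 and 38.2% of those without. Deeper cells give both genes more often, and all were thinned to 1 depth here.

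**Figure D5:**
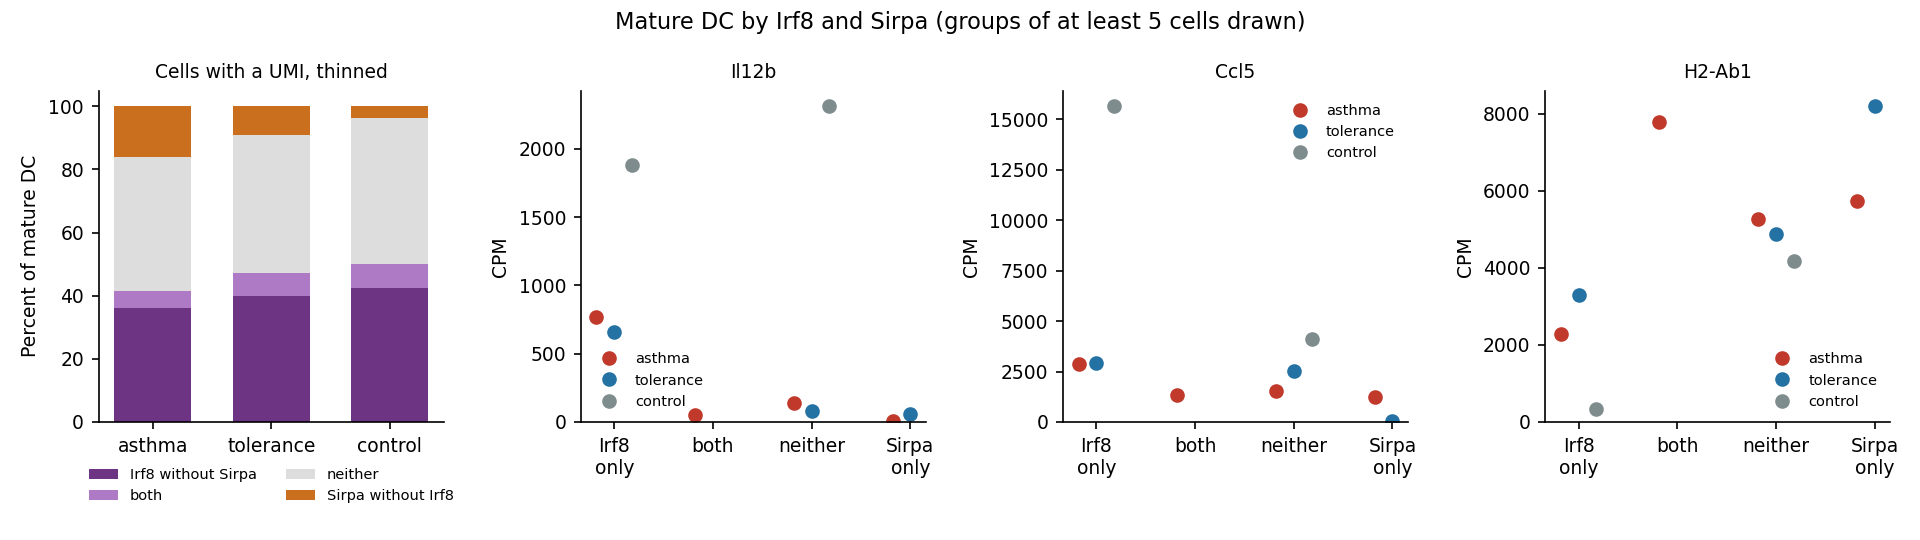
Left, percent of mature DC of each pool with a UMI of Irf8, of Sirpa, of both or of neither, in cells thinned to 2000 UMIs. Right, levels (CPM, sums of unthinned counts over cells) of Il12b, Ccl5 and H2-Ab1 in these groups by pool, where a group has at least 5 cells. Ccl5 in the cells with Irf8 alone is 15652 CPM in control, against 2888 in asthma and 2897 in tolerance.

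CLEC12A, a C-type lectin, was measured on the cell surface by an antibody tag. The median member had 24.5 and 30 tag UMIs in asthma, 24 and 31.5 in tolerance and 37 and 57.5 in control on lanes 1 and 2. Control lanes were higher than the rest, and the control lanes differed from each other more than the pools of the OVA-exposed mice did. Cd209a cDC2 had 28 and 33, 25 and 31, and 61 and 68, in the same order. Its RNA, Clec12a, was at 44.7 CPM in asthma, 47.2 in tolerance and 39.9 in control members, on 40, 17 and 5 UMIs, against 49.1, 44.8 and 178 CPM in cDC2. The hashtag UMIs of the members differed as well, with medians of 664 in asthma, 731.5 in tolerance and 910.0 in control. On the control lanes they were 724 and 1295.5, and the second of these, where the tag was also highest, lay above every other lane. Their part in the tag level was not tested. The RNA level of control members rests on few UMIs, and over the pools Clec12a did not pass against cDC2 (log2 difference -0.24, adjusted p = 0.512).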

How the data were processed

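Single-cell libraries of pooled mouse lung DC and macrophages were analysed from 6 matrices, 3 hashtagged treatment pools on each of 2 lanes. The matrices hold whole UMI counts per gene and cell as deposited, which the authors made with Cell Ranger 3.1.0 (STAR, mm10, and Seurat 3.1.5 are also named in the submitters' processing notes). Counts per gene from a 3' assay do not separate near-identical copies. Each matrix also carries 3 hashtags and the CLEC12A tag, which were left out of the gene totals.

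Of 10901 barcodes, 10088 passed the filters given above. The methods print a floor on genes per cell that no barcode reaches, so 500 genes was used and 1200 tried. The members, gene lists and tests were chosen with earlier results of these data known. UMIs were summed per class, lane and pool and divided by the class total. Mature DC and Cd209a cDC2 were compared with edgeR 4.0.16 (R 4.3.3; TMM factors, filterByExpr, quasi-likelihood test with pool as a block, adjusted p under 0.05). The 2 classes of a pool come from the same mice. The 3 pools are different treatments, so p-values measure how the class difference varied over treatments, on 2 residual degrees of freedom. The spread of each gene was moderated by that of all genes tested. The spread within a treatment was not measured, so pools were compared by size alone (at least 2-fold, 100 CPM, lanes apart). Intervals are exact binomial or Poisson at 95% and cover counting error only.

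Genes named were, for each list, up to 4 passing members in each direction with the largest log2 difference, the genes the study names, and the 10 genes outside the lists furthest in each direction with at least 100 CPM in the higher class. Between pools they were the list members past the fold and the 10 others furthest each way. Further genes named for context (among them Batf3, Cd80, Cd83, Il21r, Marcks, Nfkb2, Ciita and B2m) were chosen after their values were seen. Of 516 list symbols 512 were in the files. A few list genes that passed are not reported here. Promoter windows came from RefSeq (GRCm38.p6). Doublets were scored with Scrublet (scanpy 1.11.5) and not removed in the main counts, since its automatic call marked 0.0585% and 0.121% of cells and so had not worked. Each statistical step was tested on simulated data. The alternatives tried are given at the end.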

Additional observations from a re-analysis of the deposited data

Results flagged for a closer look

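Socs3, an inhibitor of cytokine signalling, differed between asthma and control in opposite directions in the 2 cell classes. Its log2 difference was 1.15 in mature DC and -1.02 in Cd209a cDC2, with both lanes of 1 pool above both lanes of the other in each class. The control value in mature DC rests on 8 UMIs in 4 cells, of which 1 cell gave 62.5%. In mature DC the log2 difference was 1.504 without lane 1, 0.76 without lane 2 and 1.18 in thinned cells, and the call was lost in each, with the mean under 100 CPM without lane 1 and in thinned cells. The difference between the classes was not tested.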

How the results depend on the processing

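Mature DC against Cd209a cDC2 gave 1683 genes higher and 1764 lower. DESeq2 gave 1042 and 1049, and cells thinned to 2000 UMIs 984 and 987. With a pool left out the counts were 813 to 1912 higher and 843 to 1883 lower, lowest without the asthma pool, and with a lane left out 1101 to 1206 higher and 1046 to 1198 lower. Without the term for the pool (no replicate block) they were 1364 and 1408. The 2 lanes of a pool share mice. No gene called in the main comparison was called in the opposite direction under any alternative.

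The counts between pools followed the thresholds. For asthma over control (67 higher, 65 lower) they were 172 and 150 at a floor of 50 CPM, 26 and 33 at 200 CPM, 181 and 181 at 1.5-fold, 24 and 21 at 3-fold, and 79 to 109 and 93 to 133 with a lane left out. For tolerance over control (70 and 81) they were 182 and 174, 23 and 38, 185 and 185, 29 and 24, and 106 to 110 and 116 to 136 in the same settings. For tolerance over asthma (3 and 10) they were 10 and 24, 1 and 3, 33 and 38, 0 and 2, and 9 to 19 and 15 to 15, with 17 and 23 in thinned cells. With 1 lane the condition that lanes lie apart is easier to meet. Of the 57, 66 and 12 named genes past the fold in these 3 comparisons, 8, 16 and 7 lost the call in thinned cells, 9, 12 and 3 without lane 1 and 10, 14 and 7 without lane 2.

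With 1 lane left out, 111 to 129 mature DC remained of 240. With the rule applied after thinning, mature DC were 34.2% of mature DC and cDC2 in asthma, in place of 29.8%. In tolerance they were 25.7% in place of 22.9%, and in control 17.4% in place of 19.5%. Reversed in direction were Ccl24 against cDC2 (0.68), at -0.22 without lane 1 and 1.24 without lane 2, and Ccl3 (-1.61), at 0.16 without the asthma pool (-3.79 to -0.27 with a lane left out). The cause was not tested. Named genes that lost their call against cDC2 under at least 1 alternative included Bid, Btla, Calcrl, Ccl2, Cd74, Cd79b, Cst3, Cxcl9, Cyp7b1, Egr2, Gpr183, H2afz, Ifit1, Ifrd1, Il6, Itgae, Lgals9, Ly6a, Sirpa and Tgfbr2. The 29 control members limit every comparison with the control pool, where a single cell gave up to 44.7% of the UMIs of a chemokine (Ccl17).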
